A study of Mus musculus with 18 samples.

Results

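Toll-like receptors (TLRs) and their co-receptor Cd14 were followed in mouse bone marrow-derived macrophages (BMDMs) by bulk RNA-seq. The genes were chosen by symbol, as *Tlr1*, *Tlr2*, *Tlr3*, *Tlr4*, *Tlr6*, *Tlr7*, *Tlr8*, *Tlr9*, *Tlr13* and *Cd14*, and are 10 of the 16314 genes of the count table. All 10 passed the filter on low counts, which left 12021 genes for testing. Bone marrow cells from the femora of *Prep*-/- mice and their *Prep*+/- littermates, both on a C57BL6/J background, were grown for 7 days in 50 ng/ml M-CSF, the growth factor that turns marrow precursors into macrophages. The BMDMs were then left unstimulated (M0), given 50 ng/ml LPS (M1), or given 20 ng/ml IL-4 together with 20 ng/ml IL-13 (M2) for 24 h. *Prep* encodes prolyl endopeptidase. The controls were heterozygous for *Prep*, so every comparison of genotypes sets the knockout against a heterozygote and not against the wild type, and how the allele was made is not given in the sources used here. Each of the 6 groups held 3 libraries, which the study calls biological replicates. The ages of the mice and whether each library came from a separate animal were not given in the sources used here, so the p-values measure the spread between these libraries.

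TLRs are membrane receptors of innate immune cells that recognise conserved molecules of microbes. *Tlr1*, *Tlr2*, *Tlr4* and *Tlr6* encode receptors of the cell surface: TLR2 pairs with TLR1 or TLR6 to bind bacterial lipopeptides, and TLR4 binds LPS, which CD14 hands over to it. *Tlr3*, *Tlr7*, *Tlr8*, *Tlr9* and *Tlr13* encode receptors of endosomes that read nucleic acids, namely double-stranded RNA for TLR3, single-stranded RNA and its breakdown products for TLR7 and TLR8, unmethylated CpG DNA for TLR9 and bacterial ribosomal RNA for TLR13. All signal through the adaptor MYD88 except TLR3, which uses TICAM1 (TRIF), and TLR4 uses both. LPS, the M1 stimulus used here, acts on macrophages through TLR4 and CD14.

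All 10 genes are protein-coding and were found in the GENCODE annotation of GRCm39, the build to which the reads had been aligned. *Tlr1* (chr5:65082022-65090941, minus strand) and *Tlr6* (chr5:65108704-65203497, minus strand) are neighbours separated by 17762 bases with 0 protein-coding genes between them. Their transcripts were 94.9% identical over 1076 aligned bases, so that reads from that stretch could be assigned to either gene, and the values of both carry this uncertainty. *Tlr7* (chrX:166086758-166113605, minus strand) and *Tlr8* (chrX:166024184-166047325, minus strand) form another pair, 39432 bases apart, and *Tlr7* matched other transcripts over 644 to 646 bases at 90.2 to 96.4% identity, a stretch whose reads are likewise uncertain. *Tlr13* (chrX:105186810-105204533, plus strand) lies far from that pair on the same chromosome. The others are *Tlr2* (chr3:83743576-83749074, minus strand), *Tlr3* (chr8:45848702-45864117, minus strand), *Tlr4* (chr4:66745783-66849936, plus strand) and *Tlr9* (chr9:106099797-106104082, plus strand), and *Cd14* is a single locus on the minus strand. Genes on the opposite strand cover 638 exon bases of *Tlr3* (Gm45542), 318 of *Tlr4* (Gm69151) and 61 of *Tlr6* (*Fam114a1*). The library kit keeps strand, but whether the counting used it is not given in the sources used here, so reads of those stretches cannot be assigned with certainty.

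The 250 bases before the transcription start are shown for *Tlr9*, the member called higher without *Prep* in every state, and for *Tlr2*, whose difference between the genotypes changed sign between M0 and M1. Both were read from the GRCm39 genome for the transcript that GENCODE marks as canonical, 5′ to 3′ on the strand of the gene, at chr9:106099547-106099796 (plus strand) for *Tlr9* and chr3:83749075-83749324 (minus strand) for *Tlr2*. The capitals mark a match to the AP-1 motif TGANTCA.
Tlr9: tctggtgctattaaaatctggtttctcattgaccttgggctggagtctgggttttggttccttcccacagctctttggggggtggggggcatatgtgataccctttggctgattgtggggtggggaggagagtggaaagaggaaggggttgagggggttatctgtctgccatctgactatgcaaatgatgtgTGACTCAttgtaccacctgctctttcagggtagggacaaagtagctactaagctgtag
Tlr2: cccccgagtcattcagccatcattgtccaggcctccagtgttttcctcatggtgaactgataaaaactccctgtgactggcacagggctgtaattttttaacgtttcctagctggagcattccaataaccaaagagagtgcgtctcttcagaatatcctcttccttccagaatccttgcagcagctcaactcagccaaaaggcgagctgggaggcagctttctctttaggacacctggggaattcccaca
Promoters of all 10 genes were searched on both strands for the motifs of NF-kappaB (GGG and TTTCC with 2 bases of any kind between), the core of the interferon-stimulated response element (GAAA and GAAA with 2 bases between), PU.1 (GAGGAAGT), AP-1 (TGANTCA) and STAT6 (TTC and GAA with 4 bases between). The *Tlr9* match, TGACTCA, lies 58 to 52 bases before the start, and AP-1 was also matched in *Cd14*. The AP-1 letters occur in 6.17% of 21770 protein-coding promoters of the same length. *Tlr3* held the NF-kappaB match GGGAGTTTCC 204 to 195 bases before its start (1.47% of promoters) and *Tlr8* a STAT6 match 120 to 111 bases before its start (5.89% of promoters). No member held the PU.1 letters (2.08% of promoters) or those of the interferon-stimulated response element (3.32%). Only these spellings were searched, so a site written with other letters was not counted. The *Tlr2* window, for example, holds GGGAATTCCC close to the start, which differs from the NF-kappaB letters searched. These are matches of letters in these windows and do not show that a factor binds there.

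Library totals ranged from 19068237 to 22598279 counts. Values given below are normalized counts, which are counts divided by the TMM-scaled size of the library relative to the mean of the 18 libraries. *Prep* itself averaged 759 ± 132 in *Prep*+/- and 38.6 ± 6.4 in *Prep*-/- M0 BMDMs (SD, n = 3 each), and its log2 fold changes were -4.29 (M0), -3.74 (M1) and -3.77 (M2). The 8 macrophage markers summed to 10300 to 47800 CPM (counts per 1e6 counts of the library), whereas the T cell, B cell, dendritic cell, stromal, mast cell and erythroid lists stayed at or under 29.6 CPM. The granulocyte precursor list was at 10.7 to 84 CPM. Replicate 3 of *Prep*-/- M0 and replicate 3 of *Prep*-/- M2 stood apart from their groups: the chi-square per degree of freedom in the 4 pairs that include one of them was 111 to 120, against 9.88 to 49.2 in the other 14 pairs. In M0 that library was below the mean of the other 2 *Prep*-/- libraries for 10 of 10 members, at a ratio between 0.174 and 0.862, and in M2 it was below for 7 of 10. In bulk RNA, fewer cells of a type and less RNA per cell cannot be told apart.

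**Figure D1:**
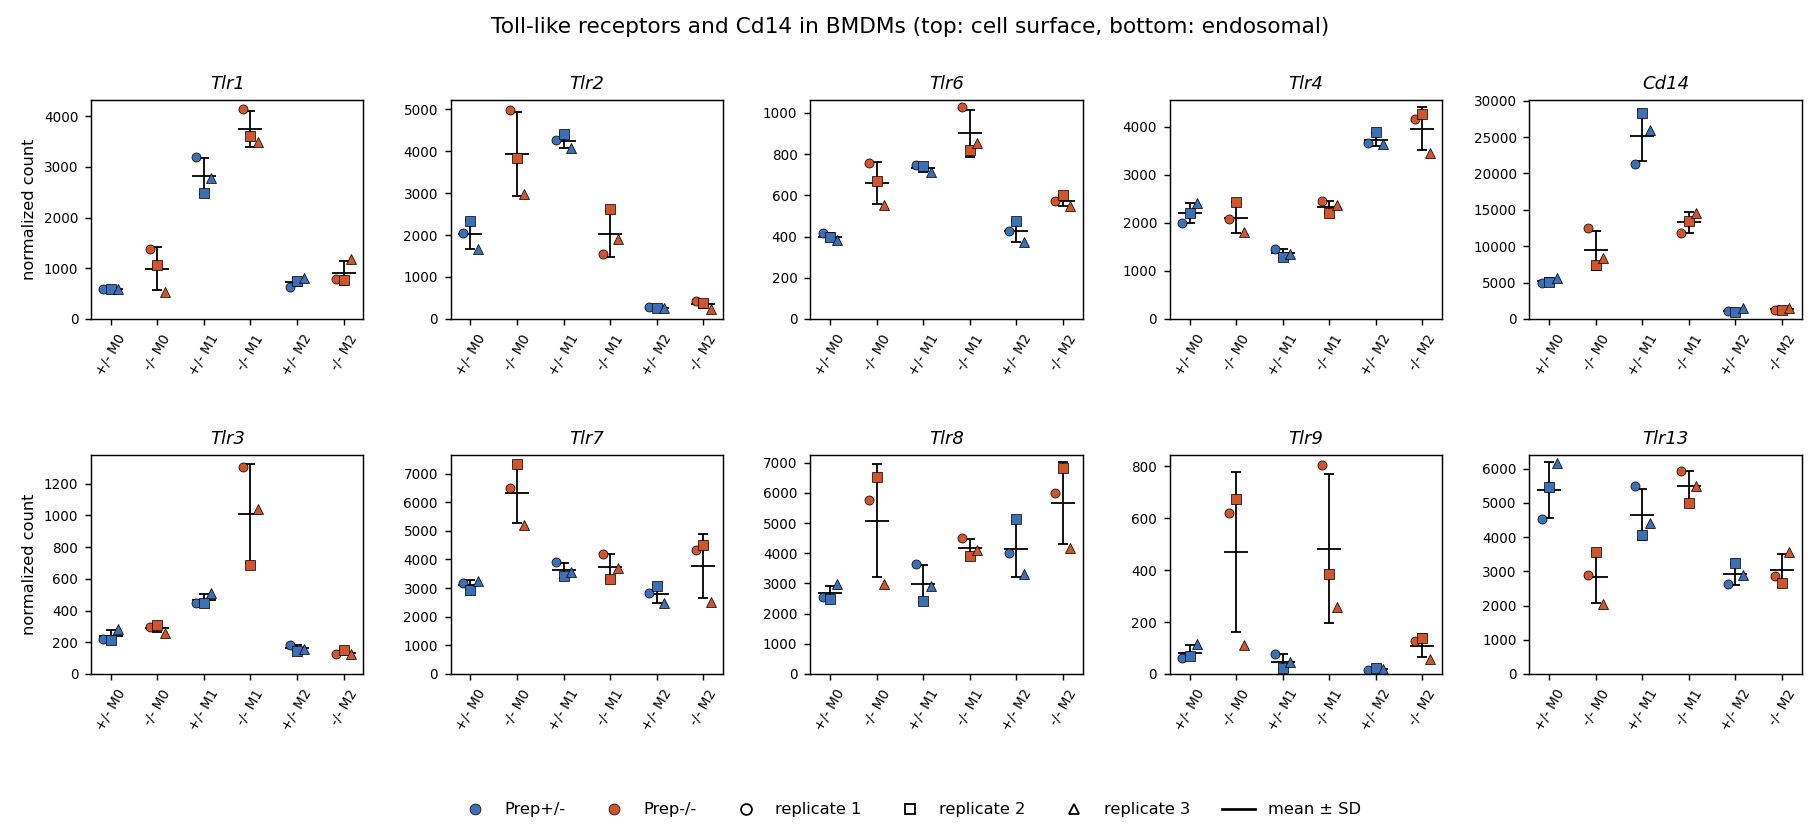
Normalized count (vertical axis, linear, from 0) of each member in the 18 libraries, grouped by genotype and state (horizontal axis). Symbols are single libraries by replicate number, blue for Prep+/- and orange for Prep-/-, and black bars are the mean and SD of 3 libraries. *Cd14* and *Tlr2* were lowest in M2, *Tlr4* was highest in M2, and *Tlr9* reached 805 in Prep-/- BMDMs against 116 at most in Prep+/- BMDMs.

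Per length of transcript, *Cd14* was the most abundant member in M0 and M1 of both genotypes. These levels are TMM-scaled CPM per kilobase of annotated exon. In *Prep*+/- M0 BMDMs the order was *Cd14* (143), *Tlr13* (53.7), *Tlr7* (27.8), *Tlr8* (24.7), *Tlr2* (17.3), *Tlr4* (14.8), *Tlr1* (8.16), *Tlr6* (3.88), *Tlr3* (2.13) and *Tlr9* (1.12). Among these, the ranges of *Tlr7* and *Tlr8* overlapped (26.1 to 29.1 against 23.1 to 27.5), as did those of *Tlr2* and *Tlr4* (14.3 to 20.1 against 13.5 to 16.2). In M1, *Cd14* reached 687 in *Prep*+/- and 362 in *Prep*-/- BMDMs. In M2 it was at 30.9 and 37.3, and *Tlr8* took the first place with 38.4 in *Prep*+/- and 52.7 in *Prep*-/- BMDMs, although the ranges of *Tlr8* and *Cd14* overlapped in both genotypes. *Tlr9* and *Tlr3* were the lowest 2 members in M0 and M2 of both genotypes and in M1 of *Prep*+/- BMDMs, and in *Prep*-/- M1 BMDMs *Tlr3* (8.95) stood beside *Tlr6* (8.75). With the longest annotated transcript in place of the union of exons as the length, this order was kept in 2 of 6 groups, and in the other 4 *Tlr4* moved up, reaching 42.9 and the first place in *Prep*+/- M2.

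**Figure D2:**
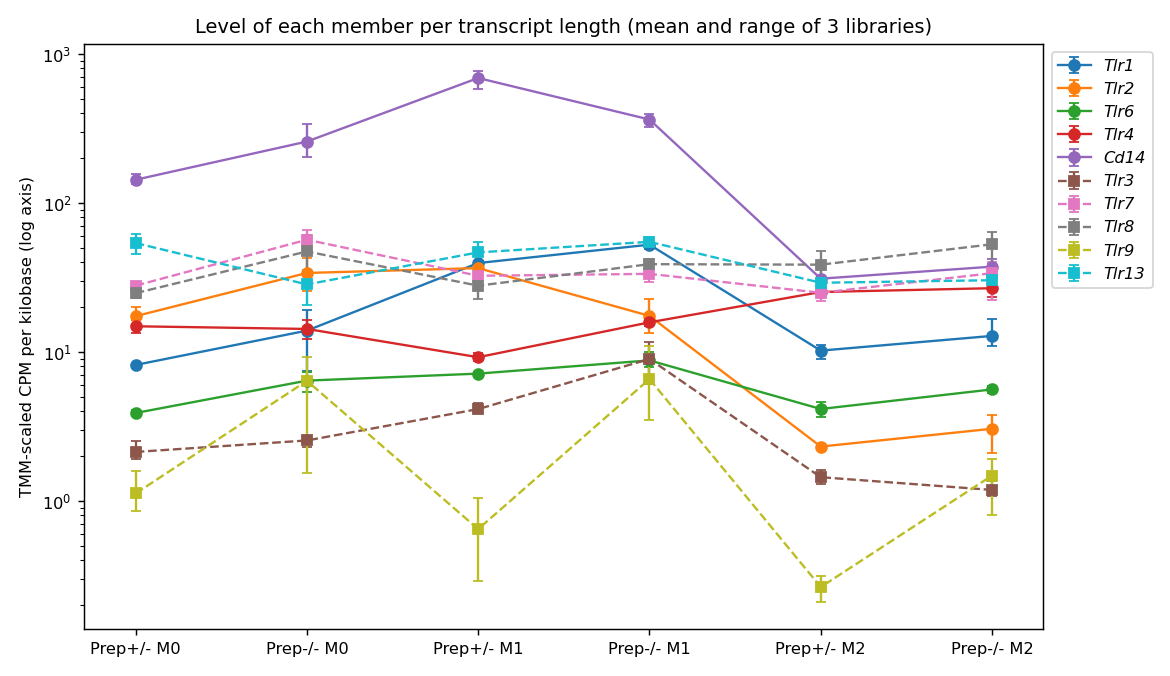
Level of each member in TMM-scaled CPM per kilobase (vertical axis, logarithmic) in the 6 groups (horizontal axis). Points are means and bars the range of 3 libraries, with circles and solid lines for cell surface receptors and Cd14 and squares and dashed lines for endosomal receptors. *Cd14* runs from 30.9 in Prep+/- M2 to 687 in Prep+/- M1, while the mean of *Tlr9* stays at or under 6.56 in all groups.

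The knockout comparison in M0 asked how the loss of *Prep* changes quiescent macrophages. Most TLR genes were higher in *Prep*-/- than in *Prep*+/- M0 BMDMs: 7 of 10 members rose (*Cd14*, *Tlr1*, *Tlr2*, *Tlr6*, *Tlr7*, *Tlr8* and *Tlr9*) and *Tlr13* fell, where a change means an adjusted p under 0.05 in the quasi-likelihood test of edgeR and a fold change over 1.5. Of all genes tested, 15.4% were called higher and 17.2% lower (32.6% in either direction). The median log2 fold change was 0.808 over the members and 0.019 over all genes tested. *Tlr3* and *Tlr4* did not pass the test. The libraries of the 2 genotypes did not overlap for 6 of 10 members, against 52.6% of all genes tested.

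*Tlr9*, the CpG DNA receptor, showed the highest fold change of the members. It stood at 62.7, 68.5 and 116 normalized counts in *Prep*+/- and at 622, 674 and 113 in *Prep*-/- M0 BMDMs (log2 fold change 2.51 with an SE of 0.57, adjusted p = 0.00189 by edgeR). Replicates 1 and 2 without *Prep* were far above the controls, and replicate 3 lay within their range. Without *Prep*-/- replicate 3 the log2 fold change was 2.96. With a replicate block on the libraries compared it was 2.26 and not called (edgeR adjusted p = 0.0503). *Tlr7*, the receptor for single-stranded RNA, was at 3161, 2927 and 3260 in *Prep*+/- and at 6497, 7319 and 5195 in *Prep*-/- BMDMs, and every *Prep*-/- library lay above every control (log2 fold change 1.02 with an SE of 0.18, adjusted p = 2.48e-04 by edgeR). Its call held in 15 of 15 alternatives. *Tlr8*, its neighbour on chromosome X, was at 2542, 2488 and 2970 against 5756, 6515 and 2972 (log2 fold change 0.93, edgeR adjusted p = 0.00544). Replicate 3 without *Prep* lay only just above the highest control, and without it the value was 1.19.

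*Tlr13*, the receptor for bacterial ribosomal RNA, went the other way. It was at 4527, 5460 and 6160 in *Prep*+/- and at 2885, 3573 and 2059 in *Prep*-/- M0 BMDMs, without overlap (log2 fold change -0.92 with an SE of 0.18, adjusted p = 5.98e-04 by edgeR). Of the 5 endosomal receptors, 3 thus rose, 1 fell and *Tlr3*, at 221, 216 and 285 against 297, 306 and 260 with overlap, was not called (log2 fold change 0.26, edgeR adjusted p = 0.279).

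Of the 5 genes for the cell surface, 4 rose and none fell. *Tlr2*, which encodes the shared partner of TLR1 and TLR6, was at 2052, 2341 and 1663 in *Prep*+/- and at 4983, 3834 and 2986 in *Prep*-/- M0 BMDMs, without overlap (log2 fold change 0.96 with an SE of 0.22, adjusted p = 0.00164 by edgeR). *Cd14* was at 4901, 5110 and 5684 against 12453, 7480 and 8390, again without overlap (log2 fold change 0.85 with an SE of 0.19, adjusted p = 0.00156 by edgeR). *Tlr6* was at 419, 397 and 383 against 756, 668 and 552 (log2 fold change 0.72, edgeR adjusted p = 1.96e-04). *Tlr1* was at 586, 583 and 583 against 1374, 1067 and 535, so that replicate 3 was below all controls (log2 fold change 0.77, edgeR adjusted p = 0.0158). Without *Prep*-/- replicate 1 the *Tlr1* value was 0.46 (adjusted p = 0.125), and without replicate 3 it was 1.05. Counted as 1 feature because of their shared stretch, *Tlr1* and *Tlr6* together rose by 0.74 on the log2 scale (edgeR adjusted p = 0.00184). *Tlr4*, the LPS receptor, was at 1997, 2196 and 2407 against 2091, 2441 and 1802, and the genotypes overlapped (log2 fold change -0.06 with an SE of 0.12, adjusted p = 0.699 by edgeR).

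Summed markers of macrophages and of other cells differed between the genotypes in M0. The summed macrophage markers, mostly *Lyz2*, were 18900 to 22300 CPM in *Prep*+/- and 30100 to 47800 CPM in *Prep*-/- M0 BMDMs. Of the 8 markers, 5 were called higher and 0 lower, against 15.4% and 17.2% of all genes tested (*Adgre1* rose by 1.22 on the log2 scale). The B cell list (4 of 6 genes in the table), whose cells also use *Tlr9*, was at 3.01 to 4.83 CPM in *Prep*+/- and 8.66 to 11.5 CPM in *Prep*-/- M0 BMDMs, nearly all of it *Cd79b*. *Cd79b* was called higher (log2 1.42, edgeR adjusted p = 0.0047). The B cell genes *Cd79a* and *Ms4a1* were at 0 in 3 of 3 *Prep*-/- M0 libraries. In *Prep*+/- M0 they were above 0 in 2 of 3 and 1 of 3 libraries, at 0.0911 and 0.0395 CPM at most. The dendritic cell list (6 of 6 genes in the table) was at 0.361 to 0.552 and 0.969 to 1.42 CPM. Of its genes, *Siglech* was at 0 in 3 of 3 *Prep*+/- and at 0.19 to 0.67 CPM in *Prep*-/- M0 libraries. *Ccr9* was above 0 in 2 of 3 *Prep*+/- and at 0 in 3 of 3 *Prep*-/- M0 libraries. The T cell list (2 of 6 in the table) was at 0.75 to 0.962 and 7.84 to 29.6 CPM, nearly all of it *Cd4*. *Cd4* was called higher (log2 4.31, edgeR adjusted p = 2.1e-06). *Cd3d* was above 0 in 1 of 3 *Prep*+/- (0.0456 CPM) and at 0 in 3 of 3 *Prep*-/- M0 libraries. Granulocyte precursor markers (8 of 8 in the table) were at 17.2 to 22.4 and 36.0 to 84.0 CPM. Of the 4 that passed the filter, 3 were called higher (*Camp* 1.46, *Ltf* 1.54 and *Ngp* 1.38 on the log2 scale) and 0 lower. The part of these lists in the differences of the TLR genes was not tested.

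**Figure D3:**
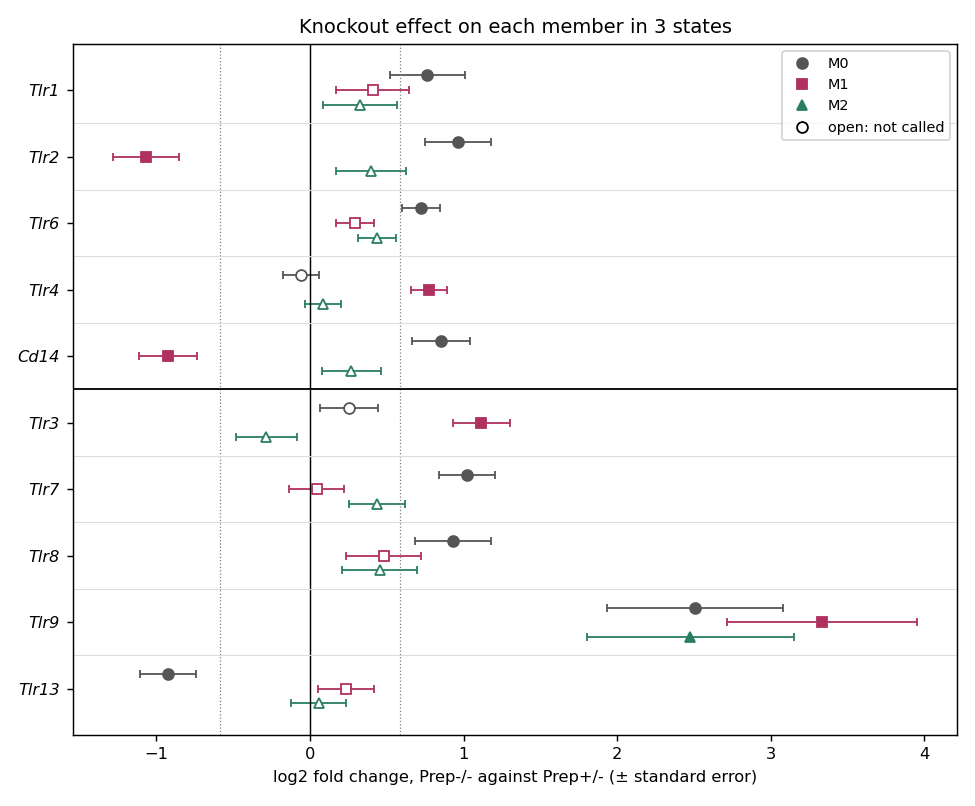
Log2 fold change of Prep-/- against Prep+/- BMDMs (horizontal axis) with its standard error for each member (vertical axis), in M0 (circles), M1 (squares) and M2 (triangles). Filled symbols passed the test and the fold change of 1.5 marked by dotted lines, open symbols did not. In M0 the filled symbols lie on the right except *Tlr13* (-0.92), in M1 *Tlr2* (-1.07) and *Cd14* (-0.93) lie on the left, and *Tlr9* is filled in all 3 states.

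After LPS the pattern was different. In M1, 3 of 10 members were higher without *Prep* (*Tlr3*, *Tlr4* and *Tlr9*) and 2 were lower (*Tlr2* and *Cd14*), against 12.3% higher and 10.2% lower among all genes tested (22.5% in either direction). The median log2 fold change was 0.352 over the members and 0.036 over all genes tested. Libraries of the 2 genotypes did not overlap for 8 of 10 members, against 56.9% of all genes. *Tlr1*, *Tlr6* and *Tlr8* were among these 8 without passing the test, at log2 fold changes of 0.41, 0.29 and 0.48 (adjusted p = 0.184, 0.0702 and 0.136, edgeR).

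*Tlr2* was at 4257, 4403 and 4063 in *Prep*+/- and at 1545, 2619 and 1914 in *Prep*-/- M1 BMDMs (log2 fold change -1.07 with an SE of 0.22, adjusted p = 0.00166 by edgeR). *Cd14* was at 21345, 28264 and 25979 against 11783, 13492 and 14526 (log2 fold change -0.93 with an SE of 0.19, adjusted p = 0.00176 by edgeR). For both genes every library without *Prep* was below every control. *Tlr4* was higher, at 1457, 1280 and 1354 against 2447, 2206 and 2362 (log2 fold change 0.78 with an SE of 0.12, adjusted p = 2.37e-04 by edgeR). The LPS receptor and its co-receptor *Cd14* thus differed between the genotypes in opposite directions in M1.

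Among the endosomal receptors, *Tlr3*, the sensor of double-stranded RNA, was at 445, 445 and 510 in *Prep*+/- and at 1308, 689 and 1040 in *Prep*-/- M1 BMDMs (log2 fold change 1.12 with an SE of 0.19, adjusted p = 4.38e-04 by edgeR). *Tlr9* was at 76.3, 21.4 and 44.9 against 805, 385 and 258, and its call held in 15 of 15 alternatives (log2 fold change 3.33 with an SE of 0.62, adjusted p = 9.08e-04 by edgeR). Neither gene overlapped between the genotypes, although the 3 *Prep*-/- libraries spread widely. *Tlr7* (log2 fold change 0.04, adjusted p = 0.867) and *Tlr13* (0.24, adjusted p = 0.319, edgeR) were not called, and their libraries overlapped. Cell markers differed between the genotypes in M1 as well. The B cell list was at 2.06 to 2.59 CPM in *Prep*+/- and at 5.09 to 6.96 CPM in *Prep*-/- M1 BMDMs (*Cd79b* called higher, log2 1.39). *Ms4a1* was at 0 in all 6 libraries. *Cd79a* was above 0 in 2 of 3 *Prep*+/- (at most 0.0606 CPM) and 1 of 3 *Prep*-/- M1 libraries (0.101 CPM). The T cell list was at 0.675 to 1.35 and 2.27 to 3.27 CPM (*Cd4* called higher, log2 1.31). Granulocyte precursor markers were at 22.5 to 39.1 and 17.4 to 24.4 CPM (*Camp* called lower, log2 -1.54), and stromal markers at 18.4 to 20.5 and 5.65 to 17.3 CPM. The sum of the macrophage list, 44700 to 46000 and 30700 to 36600 CPM, was mostly *Lyz2*. Over its 8 genes the median log2 fold change was 0.162. Of them, 1 was called higher (*Mertk*) and 0 lower, against 12.3% and 10.2% of all genes tested. The part of these lists in the M1 differences was not tested.

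Whether the knockout effect itself differed between M1 and M0 was tested as an interaction, which equals the difference between the genotypes in the response to LPS. Of the 10 members, 6 passed (adjusted p under 0.05), 3 with a positive and 3 with a negative difference, against 13.7% and 10.9% of all genes tested (24.6% in either direction). For *Tlr2* and *Cd14* the effect changed sign, from 0.96 to -1.07 and from 0.85 to -0.93, with differences of -2.03 (standard error 0.31) and -1.78 (standard error 0.27, edgeR adjusted p = 2.80e-04 and 2.82e-04). *Tlr7* lost its M0 excess (difference -0.98, edgeR adjusted p = 0.011). *Tlr13* went from -0.92 to 0.24 (difference 1.16, edgeR adjusted p = 0.00434) and *Tlr4* from -0.06 to 0.78 (difference 0.84, edgeR adjusted p = 0.00196). These 5 calls held in 19 of 19 alternatives. For *Tlr3* the difference was 0.86 (edgeR adjusted p = 0.0259), and 5 single libraries decided that call. Without *Prep*-/- M1 replicate 1 it was 0.62 (adjusted p = 0.0759), without *Prep*-/- M1 replicate 3 0.83 (0.0517), without *Prep*+/- M0 replicate 3 0.72 (0.0759), without *Prep*+/- M1 replicate 1 0.81 (0.0517) and without *Prep*+/- M1 replicate 2 0.82 (0.0631). Without *Prep*-/- M0 replicate 3, *Tlr1* (-0.65, adjusted p = 0.0439) and *Tlr6* (-0.54, adjusted p = 0.0216) also passed, and *Tlr6* did so without *Prep*-/- M1 replicate 1 (-0.55, adjusted p = 0.0311). With all *Prep*-/- libraries numbered 3 left out, *Tlr8* passed too (-0.71, adjusted p = 0.0413) and *Tlr3* did not (0.775, adjusted p = 0.0643).

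In M2 only *Tlr9* was called among the members, against 6.37% higher and 9.82% lower of all genes tested (16.2% in either direction). The median log2 fold change was 0.362 over the members and 0.027 over all genes tested, and the libraries did not overlap for 2 of 10 members (42.1% of all genes). *Tlr9* was low in this state, at 15.3, 23.1 and 19.8 in *Prep*+/- and at 128, 140 and 58.8 in *Prep*-/- M2 BMDMs (log2 fold change 2.48 with an SE of 0.67, adjusted p = 0.0134 by edgeR). Without *Prep*+/- M2 replicate 1 the adjusted p was 0.0528 at a log2 fold change of 2.34. In M2 the B cell list was at 1.61 to 2.81 CPM in *Prep*+/- and at 1.01 to 4.45 CPM in *Prep*-/- BMDMs, and the genotypes overlapped. They did not overlap for the macrophage list, at 10300 to 12500 and 14100 to 19900 CPM (mostly *Lyz2*, with *Csf1r* and *Lyz2* called higher), the T cell list, at 0.17 to 0.461 and 1.55 to 2.46 CPM (*Cd4* called higher, log2 2.54), and the granulocyte precursor list, at 10.7 to 12.7 and 14.1 to 22.5 CPM. The dendritic cell gene *Siglech* was at 0 in 3 of 3 *Prep*+/- and at 0.0479 to 0.201 CPM in *Prep*-/- M2 libraries. The part of these markers in the M2 differences was not tested. *Tlr6*, at 426, 474 and 375 against 573, 604 and 548, did not overlap and passed the p threshold (adjusted p = 0.0172, edgeR) with a fold change of 1.35, below the minimum. *Tlr2* (274, 263 and 270 against 435, 385 and 242), *Tlr7* (2837, 3067 and 2470 against 4338, 4500 and 2501) and *Tlr8* (4004, 5123 and 3300 against 6003, 6840 and 4191) overlapped only through replicate 3. Without *Prep*-/- M2 replicate 3, *Tlr2* (log2 fold change 0.62, adjusted p = 0.0359) and *Tlr7* (0.68, adjusted p = 0.00117) were called, so that 3 members were higher, and 4 were higher when all *Prep*-/- libraries numbered 3 were left out, with *Tlr8* at 0.65 (adjusted p = 0.00773). Replicates of the same number deviated together in this comparison (correlations of 0.249 to 0.462), and a replicate block left 1 member called. *Tlr13* was the only member whose knockout effect differed between M2 and M0 (difference 0.98, edgeR adjusted p = 0.0249, against 5.16% of all genes higher, 4.48% lower and 9.64% in either direction). That call was lost without *Prep*+/- M0 replicate 2 (0.97, adjusted p = 0.0599), *Prep*+/- M0 replicate 3 (0.865, 0.0733) or *Prep*+/- M2 replicate 1 (0.91, 0.0638), and with all *Prep*-/- libraries numbered 3 left out (0.68, 0.0584), where *Tlr1* passed instead (-0.94, adjusted p = 0.00411).

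The comparisons of M1 and M2 with M0 asked how each receptor gene responds to polarization. They share their M0 libraries with each other and with the knockout comparison. In *Prep*+/- BMDMs, LPS raised 5 of 10 members (*Cd14*, *Tlr1*, *Tlr2*, *Tlr3* and *Tlr6*) and lowered *Tlr4*, against 16.7% higher and 20.9% lower of all genes tested (37.7% in either direction). The M1 and M0 libraries did not overlap for 7 of 10 members, against 65.2% of all genes. *Tlr1* went from 586, 583 and 583 to 3186, 2486 and 2784 (4.83-fold, log2 2.27, standard error 0.25) and *Cd14* from 4901, 5110 and 5684 to 21345, 28264 and 25979 (4.82-fold, log2 2.27, standard error 0.20). *Tlr2*, *Tlr3* and *Tlr6* rose 2.10-fold, 1.94-fold and 1.84-fold (edgeR adjusted p between 1.73e-05 and 5.44e-04). *Tlr4* fell by 0.69 on the log2 scale, from 1997, 2196 and 2407 to 1457, 1280 and 1354 (edgeR adjusted p = 1.06e-04). All 5 genes for the cell surface thus responded to LPS in the controls, and of the endosomal receptors *Tlr3* was the one that passed, while *Tlr7*, *Tlr8*, *Tlr9* and *Tlr13* had log2 values of 0.22, 0.17, -0.79 and -0.21.

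In *Prep*-/- BMDMs, LPS raised *Tlr1*, *Tlr3* and *Tlr13* and lowered *Tlr2* and *Tlr7*, so that 3 of 10 members rose and 2 fell, against 20.9% higher and 21% lower of all genes tested (42% in either direction). The libraries did not overlap for 6 of 10 members, against 58.5% of all genes. *Tlr1* rose 3.77-fold, from 1374, 1067 and 535 to 4140, 3612 and 3483, and *Tlr3* rose 3.52-fold, from 297, 306 and 260 to 1308, 689 and 1040 (edgeR adjusted p = 5.83e-06 and 6.43e-07). *Tlr13* rose 1.93-fold from 2885, 3573 and 2059 to 5934, 5012 and 5505, where the *Prep*+/- M1 libraries were at 5500, 4066 and 4404. *Tlr2* fell by 0.96 on the log2 scale from 4983, 3834 and 2986 to 1545, 2619 and 1914, and *Tlr7* fell by 0.76 from 6497, 7319 and 5195 to 4200, 3322 and 3697 (edgeR adjusted p = 0.00124 and 0.00181). *Cd14* rose 1.41-fold, under the fold minimum (adjusted p = 0.0351, edgeR), and was called without *Prep*-/- M0 replicate 1 (log2 0.74, adjusted p = 0.00261). *Tlr6* also passed on its p alone (1.37-fold, adjusted p = 0.00487, edgeR). *Tlr8* was called lower without *Prep*-/- M0 replicate 3 (log2 -0.59, adjusted p = 0.0227). Replicates of the same number deviated together here too (0.169 to 0.259), and a replicate block changed neither count of calls.

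**Figure D4:**
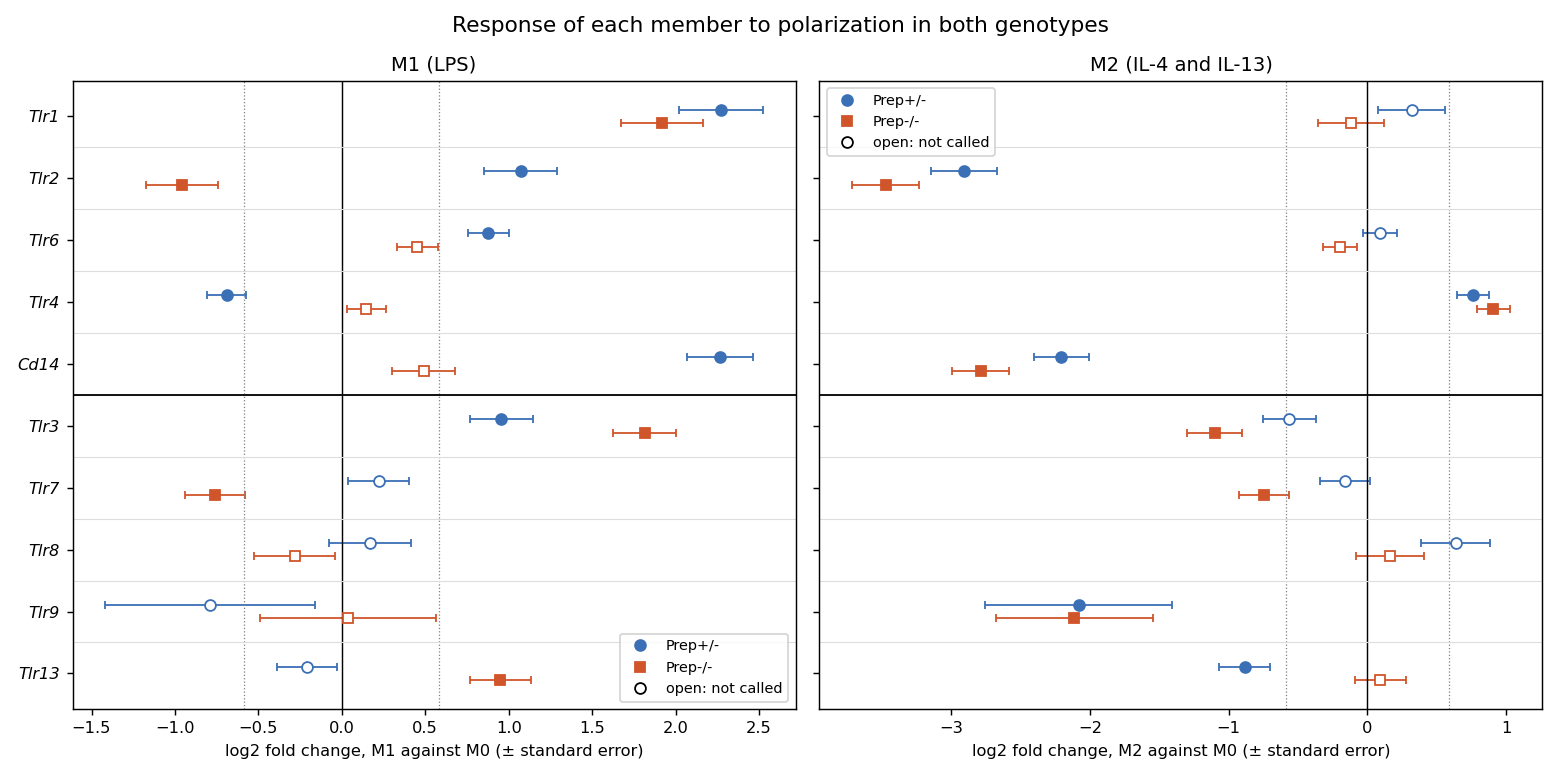
Log2 fold change (horizontal axis) with its standard error of M1 against M0 (left panel) and of M2 against M0 (right panel) for each member (vertical axis), in Prep+/- (blue circles) and Prep-/- BMDMs (orange squares). Filled symbols passed the test and the fold change of 1.5 marked by dotted lines. For LPS, *Tlr2* lies at 1.07 in Prep+/- and -0.96 in Prep-/- BMDMs and *Cd14* at 2.27 and 0.49, while in M2 both genes fall and *Tlr4* rises in both genotypes.

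IL-4 and IL-13 lowered *Tlr2* and *Cd14* and raised *Tlr4* in both genotypes. In *Prep*+/- BMDMs, *Tlr4* rose and *Cd14*, *Tlr2*, *Tlr9* and *Tlr13* fell, that is 1 and 4 of 10 members against 6.09% higher and 6.77% lower of all genes tested (12.9% in either direction). In *Prep*-/- BMDMs, *Tlr4* rose and *Cd14*, *Tlr2*, *Tlr3*, *Tlr7* and *Tlr9* fell, 1 and 5 of 10 members against 14.7% and 15.5% (30.2% in either direction). The M2 and M0 libraries did not overlap for 8 of 10 members in *Prep*+/- BMDMs (45.9% of all genes) and for 5 of 10 in *Prep*-/- BMDMs (44.4% of all genes). *Tlr2* dropped from 2052, 2341 and 1663 to 274, 263 and 270 in *Prep*+/- BMDMs (7.5-fold lower) and from 4983, 3834 and 2986 to 435, 385 and 242 in *Prep*-/- BMDMs (11.1-fold lower). *Cd14* was 4.61-fold and 6.91-fold lower, at 1032, 914 and 1456 in *Prep*+/- and 1271, 1298 and 1529 in *Prep*-/- M2 BMDMs. *Tlr4* rose 1.70-fold to 3654, 3901 and 3649 and 1.88-fold to 4171, 4262 and 3453 (edgeR adjusted p = 1.60e-04 and 1.11e-05). These 3 genes did not pass the interaction test of a difference between the genotypes in the M2 response (adjusted p = 0.269, 0.181 and 0.620, edgeR), at differences of -0.57, -0.58 and 0.14 with standard errors of 0.31, 0.27 and 0.16.

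The endosomal receptors responded less evenly to IL-4 and IL-13. *Tlr9* fell by 2.08 on the log2 scale in *Prep*+/- BMDMs (edgeR adjusted p = 0.0413). This call was lost without *Prep*+/- M0 replicate 2 (-2.21, adjusted p = 0.0609), *Prep*+/- M0 replicate 3 (-1.75, 0.146) or any of the *Prep*+/- M2 replicates 1, 2 and 3 (-1.96, -2.23 and -2.12, adjusted p = 0.123, 0.0859 and 0.101). In *Prep*-/- BMDMs it fell by 2.11 (edgeR adjusted p = 0.00623), although the libraries overlapped because M0 replicate 3 (113) was below M2 replicates 1 and 2 (128 and 140). *Tlr13* fell in *Prep*+/- BMDMs, from 4527, 5460 and 6160 to 2621, 3231 and 2888 (log2 fold change -0.89, edgeR adjusted p = 0.00228), and in *Prep*-/- BMDMs it was at 2852, 2665 and 3574 in M2 against 2885, 3573 and 2059 in M0 (log2 fold change 0.09, adjusted p = 0.701). *Tlr3* was at 125, 154 and 123 in *Prep*-/- M2 BMDMs (log2 fold change -1.10, edgeR adjusted p = 2.67e-04) and at 182, 147 and 160 in *Prep*+/- M2 BMDMs (-0.56, adjusted p = 0.0528). *Tlr7* fell in *Prep*-/- BMDMs (log2 fold change -0.75, edgeR adjusted p = 0.0031), a value that went to -0.53, under the fold minimum, without *Prep*-/- M2 replicate 3. *Tlr8* went up without being called, by 0.64 in *Prep*+/- and 0.16 in *Prep*-/- BMDMs (edgeR adjusted p = 0.0862 and 0.625). Its *Prep*+/- M2 and M0 libraries did not overlap. With only the libraries compared, *Tlr8* was called higher in *Prep*+/- BMDMs (0.65, edgeR adjusted p = 0.00586). *Tlr1* and *Tlr6* had log2 values between -0.20 and 0.32 in the 2 genotypes and were not called, but *Tlr1* was called lower in *Prep*-/- BMDMs with all *Prep*-/- libraries numbered 3 left out (-0.65, adjusted p = 0.00162).

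Cell markers were called in the polarization comparisons as well. In *Prep*+/- BMDMs, 4 of 8 macrophage markers were higher and 0 lower in M1, and 1 was higher and 2 lower in M2, while the granulocyte precursor gene *Camp* was higher in M1 and lower in M2. Of all genes tested there, 16.7% were higher and 20.9% lower in M1, and 6.09% and 6.77% in M2. In *Prep*-/- BMDMs, 3 macrophage markers were higher and 1 lower in M1, and 2 were higher and 6 lower in M2. The shares of all genes tested were 20.9% and 21% in M1, and 14.7% and 15.5% in M2. Of the 4 granulocyte precursor markers that passed the filter, 4 were lower in M1 and 3 in M2 without *Prep*, and *Cd4* was lower in both. The B cell gene *Cd79b* was lower in M2 of *Prep*-/- BMDMs (log2 -1.69), and the stromal gene *Dcn* was higher in M1 of both genotypes. The dendritic cell gene *Zbtb46* was higher in M2 of both genotypes. The part of these markers in the responses of the TLR genes was not tested.

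The remaining mouse TLR genes of the table were scarce. *Tlr5*, which encodes the flagellin receptor, had 49 to 54 raw counts in the *Prep*+/- and 19 to 69 in the *Prep*-/- M0 libraries, and 6 at most in any M1 or M2 library. It was called lower in M1 and M2 of both genotypes and was not called in the knockout comparisons. The summed counts of *Tlr5* in *Prep*+/- BMDMs were 7.94-fold lower in M1 than in M0 (95% interval 4.59 to 14.9, exact, counting error only). *Tlr11* and *Tlr12* did not pass the filter, and *Tlr11* reached 9 to 28 raw counts in *Prep*-/- M2 libraries.

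Other genes of the TLR pathway were taken from 3 lists, which give counts of calls and carry no test of their own. Of 18 genes for accessory, chaperone and trafficking factors, 9 rose and 3 fell in *Prep*-/- M0 BMDMs (15.4% and 17.2% of all genes tested), with a median log2 fold change of 0.698 against 0.019 over all genes. In M1 none rose and 1 fell (12.3% and 10.2% of all genes), and 2 rose without *Prep*-/- M1 replicate 2 and 1 without *Prep*-/- M1 replicate 3. In M2 5 rose and none fell (6.37% and 9.82% of all genes), and 1 fell without *Prep*-/- M2 replicate 3. *Unc93b1*, which escorts endosomal TLRs out of the endoplasmic reticulum, was at 9230, 7436 and 7124 in *Prep*+/- and at 33780, 22163 and 24170 in *Prep*-/- M0 BMDMs (log2 fold change 1.75 with an SE of 0.16, adjusted p = 1.09e-06 by edgeR). In M1 it was at 15850 ± 332 and 16690 ± 425 (SD, n = 3 each, log2 fold change 0.07), and in M2 at 7387 ± 438 and 16930 ± 3330 (log2 fold change 1.20, edgeR adjusted p = 7.84e-05). *Ly96* (MD-2), the LPS-binding partner of TLR4, was at 341, 286 and 295 against 707, 595 and 842 in M0 (log2 fold change 1.22, edgeR adjusted p = 1.52e-05), while *Tlr4* itself was not called there. *Scimp*, an adaptor of TLR signalling, had 1 to 3 raw counts in *Prep*+/- and 29 to 43 in *Prep*-/- M0 libraries, a ratio of 23.4 for the summed counts (95% interval 9.73 to 73.6, exact, counting error only), and in M2 it rose by 1.65 on the log2 scale (edgeR adjusted p = 7.91e-04). *Cd36*, a scavenger receptor that works with TLR2, fell by 1.42 on the log2 scale in M0 (edgeR adjusted p = 0.00462). *Hsp90b1*, the chaperone gp96 on which TLR folding depends, fell by 0.92 in M0 and by 0.61 in M1 (edgeR adjusted p = 9.92e-06 and 8.34e-04), and the M1 value went under the fold minimum without *Prep*-/- M1 replicate 1 (-0.53) or *Prep*+/- M1 replicate 2 (-0.58). For the interaction between M1 and M0, 8 of the 18 genes had a lower knockout effect in M1 and none a higher one (10.9% and 13.7% of all genes).

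Of 18 adaptors and proximal kinases, 5 rose in M0 (*Ikbke*, *Irak4*, *Tab2*, *Ticam1* and *Ticam2*), 2 in M1 and 3 in M2, and none fell. Of all genes tested, 15.4%, 12.3% and 6.37% rose in these states, so the M1 count was near that background. *Ikbke*, a kinase of the interferon branch, rose by 1.17 on the log2 scale in M0 (edgeR adjusted p = 9.63e-05). *Ticam2* (TRAM), which links TLR4 to TICAM1, rose in all 3 states, with log2 fold changes of 0.77, 0.68 and 1.24 (edgeR adjusted p = 0.00466, 0.0147 and 3.07e-04). The M1 call of *Ticam2* was lost without *Prep*-/- M1 replicate 1 (0.61, adjusted p = 0.0648) or *Prep*+/- M1 replicate 2 (0.60, adjusted p = 0.0686). Without *Prep*-/- M1 replicate 1, none of the 18 genes was called higher in M1, without *Prep*-/- M1 replicate 2 4 were, and without *Prep*+/- M1 replicate 2 1 was. *Ticam1*, the adaptor of TLR3 and TLR4, rose by 0.84 in M0 and 0.76 in M2 (edgeR adjusted p = 1.62e-05 and 1.15e-04). *Myd88* was at 1576 ± 23.1 in *Prep*+/- and 2220 ± 260 in *Prep*-/- M0 BMDMs (SD, n = 3 each), which passed the p threshold (adjusted p = 3.57e-04, edgeR) at a log2 fold change of 0.49, below the minimum.

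Of 12 negative regulators, 2 rose and 1 fell in M0, 3 rose in M1 and 1 rose in M2. The M0 counts were near or below the background of 15.4% higher and 17.2% lower, and 12.3% and 6.37% of all genes rose in M1 and M2. *Ly86* (MD-1), the partner of the TLR-like receptor CD180, rose in all 3 states and was at 1762, 1470 and 1467 in *Prep*+/- against 9847, 6644 and 7579 in *Prep*-/- M0 BMDMs (log2 fold change 2.36 with an SE of 0.23, adjusted p = 1.72e-06 by edgeR). In M1 and M2 the *Ly86* values were 0.74 and 1.59 (edgeR adjusted p = 0.0185 and 1.36e-04). *Cd180* itself was at 2162, 2695 and 3249 against 1438, 2021 and 714 in M0 (log2 fold change -0.96, edgeR adjusted p = 0.0337) and at 3087, 1664 and 2199 against 6942, 4142 and 5035 in M1 (1.21, edgeR adjusted p = 0.0143). Its M0 call was lost without *Prep*-/- M0 replicate 1 (-0.98, adjusted p = 0.070) or 3 (-0.65, 0.115) and without *Prep*+/- M0 replicate 2 (-0.99, 0.0603) or 3 (-0.82, 0.105). *Sigirr*, an inhibitory receptor, rose by 1.46 in M1 (edgeR adjusted p = 0.0068), and *Irak3*, the kinase-dead inhibitor IRAK-M, was not called in any state (0.55, -0.28 and 0.11, and in M0 0.81 without *Prep*-/- replicate 3, which was called). The count of 2 that rose in M0 became 1 without *Prep*-/- M0 replicate 1, *Prep*+/- M0 replicate 2 or *Prep*+/- M0 replicate 3, and 4 without *Prep*-/- M0 replicate 3. The count of 3 in M1 became 1 without *Prep*-/- M1 replicate 1 or *Prep*+/- M1 replicate 2.

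**Figure D5:**
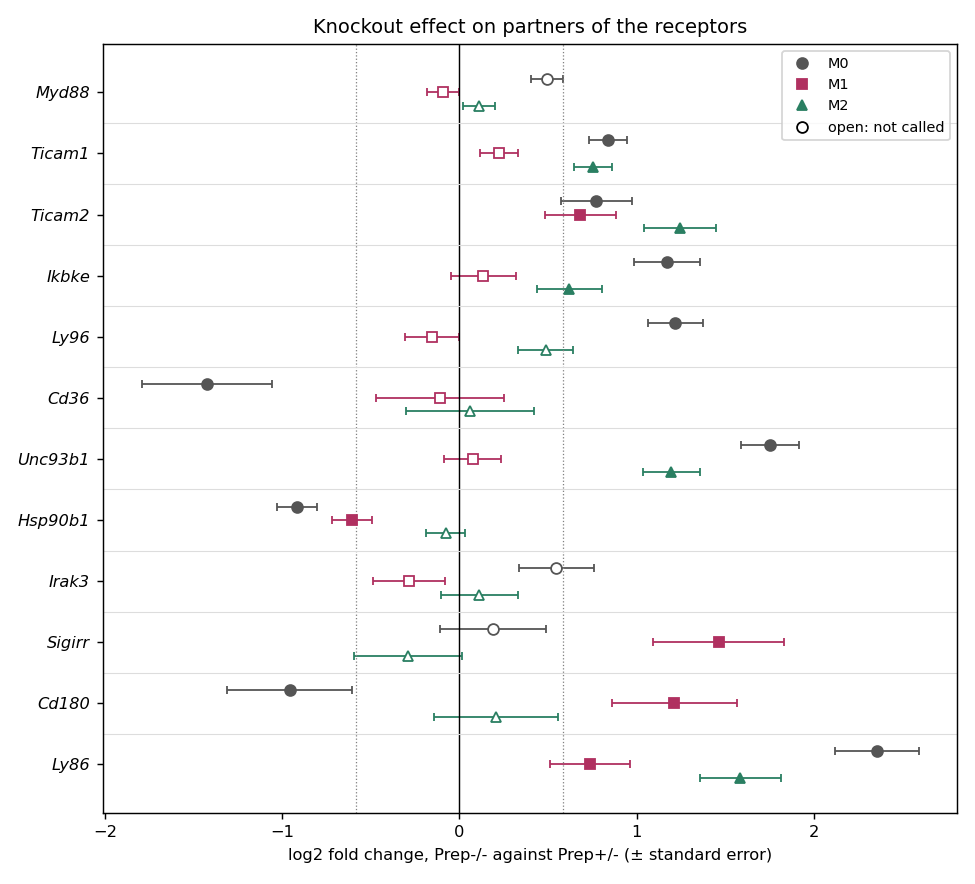
Log2 fold change of Prep-/- against Prep+/- BMDMs (horizontal axis) with its standard error for partner genes of the receptors (vertical axis), in M0 (circles), M1 (squares) and M2 (triangles). Filled symbols passed the test and the fold change of 1.5 marked by dotted lines, and *Scimp* is left out because its Prep+/- M0 libraries held 1 to 3 counts. *Unc93b1* lies at 1.75 (M0), 0.07 (M1) and 1.20 (M2), and *Ly86* is filled in all 3 states.

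The same lists were counted in the polarization comparisons, where 16.7% of all genes were higher and 20.9% lower in M1 of *Prep*+/- BMDMs, and 20.9% and 21% in M1 of *Prep*-/- BMDMs. For M1 against M0, the adaptors and kinases had 7 of 18 higher and 0 lower in *Prep*+/- and 6 higher and 1 lower (*Irak4*, and 2 without *Prep*-/- M1 replicate 1) in *Prep*-/- BMDMs, with *Ikbke* as the highest called rise in both (log2 2.48 and 1.44). The accessory factors had 8 of 18 higher in both genotypes, and 0 and 4 lower, the 4 becoming 2 without *Prep*-/- M0 replicate 1. The highest called rise was *Scimp* in *Prep*+/- BMDMs and *Slc15a3*, an endosomal transporter, in *Prep*-/- BMDMs (log2 3.12), where *Dnase2a*, a lysosomal nuclease, fell by 0.97. *Irak3* rose in M1 by 3.54 in *Prep*+/- and 2.71 in *Prep*-/- BMDMs and fell in M2 by 0.84 and 1.27. The receptor gene *Il1rl1* was nearly lost in M1, with 0 to 3 raw counts in *Prep*+/- and 1 to 2 in *Prep*-/- libraries. In M0 it had 66 to 122 and 19 to 45. The *Prep*-/- call in M1 (log2 -4.15, edgeR adjusted p = 0.0484) was lost without any 1 of the 6 libraries compared (adjusted p between 0.0511 and 0.109). In M2, *Il1rl1* was called higher in *Prep*-/- BMDMs at 71.3, 73.0 and 1714, a rise of 4.18 that became 1.06 (adjusted p = 0.0727) without replicate 3. In M2 *Lbp*, which carries LPS to CD14, was called lower in both genotypes (log2 -1.44 and -2.78), and the call in *Prep*+/- BMDMs was lost without any 1 of 5 of the 6 libraries compared (*Prep*+/- M0 replicates 1 and 2 and *Prep*+/- M2 replicates 1, 2 and 3, -1.32, -1.37, -1.52, -1.64 and -1.26). The adaptor called with the highest rise in M2 was *Ticam1* in *Prep*+/- (0.62, and 0.58 without M0 replicate 2, under the fold minimum) and *Ikbkg* in *Prep*-/- BMDMs (0.71, and 0.50 without M2 replicate 3).

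Over the 18 libraries, *Tlr2* and *Cd14* followed each other most closely among the members (Pearson r = 0.928 over log2 CPM), followed by *Tlr1* and *Tlr6* (0.876). The transcripts of *Tlr1* and *Tlr6* were 94.9% identical over 1076 aligned bases, and the part of that stretch in their correlation was not tested. *Tlr4* ran opposite to both *Cd14* (-0.924) and *Tlr2* (-0.898). The neighbours *Tlr7* and *Tlr8* correlated at 0.535. The 18 points fall into 6 groups and share their libraries, so these values describe the pattern over groups and carry no test. Among all genes tested, the gene most like each member was *Tnfaip3* for *Tlr1* (r = 0.982), *Smad3* for *Tlr2* (0.980), I830077J02Rik for *Tlr3* (0.982), *Mettl7a1* for *Tlr4* (0.959), *Gbp5* for *Tlr6* (0.976), *Notch2* for *Tlr7* (0.95), *Fcgr3* for *Tlr8* (0.934), *Iqsec2* for *Tlr9* (0.976), *Nox1* for *Tlr13* (0.928) and *Pou2f2* for *Cd14* (0.985). With Spearman's correlation another gene came first for 8 of the 10 members.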

How the data were processed

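RNA-seq of 18 BMDM libraries was analysed from the table of raw counts per gene that the authors deposited. Per the labels and the study's methods, TruSeq Stranded mRNA libraries were trimmed with Trimmomatic 0.36, aligned to GRCm39 with HISAT2 2.2.1.0 and counted with StringTie. The annotation release and strand setting are not given in the sources used here, and the authors tested with DESeq2.

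Counts were scaled by TMM and fitted in edgeR 4.0.16 (R 4.3.3) with 1 mean per group over all 18 libraries. Genes passing filterByExpr were tested by the quasi-likelihood test with Benjamini-Hochberg adjustment. Calls needed adjusted p values below 0.05 together with a change above 1.5-fold (interactions: p only). On simulated data for the M0 knockout comparison, with 200 of 12021 genes changed, edgeR recovered 90% of them (80% at 2-fold), and 5.26% of calls were not changed genes. The simulated libraries of a gene shared 1 spread and had no deviating replicate. In the data, 3913 genes were called in that comparison and *Prep*-/- M0 replicate 3 stood apart. The simulated rates therefore cannot be carried over to the calls reported here. Pearson correlations were taken over log2 CPM (prior count 2). Intervals of count ratios are exact and cover counting error only.

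The members and lists were chosen with earlier results of these data known. Named partners were, per list and comparison, the called genes with the largest rise and fall, with *Ly96*, *Myd88*, *Ticam1*, *Unc93b1* and *Irak3* in any case. *Adgre1*, *Tlr5*, *Tlr11* and further values of a partner outside its own comparison were added after values were seen.

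Shared replicate numbers were checked by the correlation of deviations from group means. All pairs exceeded 0.1 for the knockout comparison in M2 (0.249 to 0.462) and for M1 against M0 in *Prep*-/- BMDMs (0.169 to 0.259). Alternatives were DESeq2 1.42.0, its size factors, other count filters, a test against the fold minimum, no fold minimum, fits on the compared libraries with and without a replicate block, and leaving out each library. Leaving out all *Prep*-/- libraries numbered 3 and summing *Tlr1* and *Tlr6* were chosen after seeing the data.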

Additional observations from a re-analysis of the deposited data

Results flagged for a closer look

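For 6 members the knockout effect in M1 differed from that in M0 by the interaction test of edgeR, as log2 differences of -2.03 for *Tlr2*, -1.78 for *Cd14*, -0.98 for *Tlr7*, 0.84 for *Tlr4*, 0.86 for *Tlr3* and 1.16 for *Tlr13*. For *Tlr13* the effect in M2 also differed from that in M0, by 0.98. The *Tlr3* call and the M2 call of *Tlr13* each depend on single libraries, as given with those results.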

How the results depend on the processing

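Of 1410 values of single members under an alternative, 1322 kept direction and call, 43 lost the call, 21 gained one and 24 changed sign, none of the last being called. When the test itself was made against a 1.5-fold change, the M0 knockout calls were 2 higher (*Tlr7* and *Tlr9*) and 0 lower. In M1, *Tlr3* and *Tlr9* stayed higher and 0 were lower. *Tlr4*, *Tlr2* and *Cd14* lost their M1 calls (adjusted p = 0.163, 0.0751 and 0.135 by glmTreat of edgeR). M2 had 0 higher. The LPS response had 0 lower in either genotype, and the M2 response of *Prep*+/- BMDMs had 0 higher and 2 lower. With no fold minimum, 2 members were higher in the M2 knockout comparison and 5 in the LPS response of *Prep*-/- BMDMs. With only the libraries compared, the M2 response of *Prep*+/- BMDMs had 2 higher (*Tlr4* and *Tlr8*) and the interaction in M2 had 0.

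With a replicate block, 4 members were higher in the M0 knockout comparison, 2 in the M2 response of *Prep*+/- BMDMs and 0 in the interaction in M2, where *Tlr9* was at 0.143. The M0 calls lost were those of *Tlr1*, *Tlr8* and *Tlr9* (edgeR adjusted p = 0.111, 0.0646 and 0.0503). In these comparisons the libraries share only a number (correlations of -0.315 to -0.039 in M0). Where numbers paired the libraries, the block left the counts of member calls as they were.

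With all *Prep*-/- libraries numbered 3 left out, 4 members were higher in the M2 knockout comparison, 6 were lower in the M1 interaction, and the M2 interaction had 0 higher and 1 lower. Sign changes there were *Tlr4* in M0 (0.034), *Tlr13* in M2 (-0.065), *Tlr9* in M1 against M0 (-0.154) and *Tlr13* in M2 against M0 (-0.229), both in *Prep*-/- BMDMs. The cause of these changes was not tested.

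Leaving out 1 library gave 0 to 3 members higher in the M2 knockout comparison, 3 to 5 lower in the M1 interaction and 0 to 1 higher in the M2 interaction. Uncalled values that changed sign ranged, over the libraries left out, from -0.478 to 0.345 for *Tlr9* in the M2 interaction, -0.175 to 0.034 for *Tlr4* in M0, -0.059 to 0.111 for *Tlr7* in M1, -0.066 to 0.146 for *Tlr13* in M2, -0.023 to 0.265 for *Tlr8* in the LPS response of *Prep*+/- BMDMs, and in *Prep*-/- BMDMs -0.582 to 0.367 for *Tlr9* in the LPS response and -0.426 to 0.188 for *Tlr1*, -0.12 to 0.368 for *Tlr8* and -0.104 to 0.275 for *Tlr13* in the M2 response. The longest transcript as length kept the order of levels in 2 groups.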
